A study of Mus musculus with 8 samples.

Results

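The coagulation and fibrinolysis genes described here are 31 listed genes for clotting factors, fibrinogen chains, anticoagulants and the enzymes that make or hold back plasmin. They were chosen by name and taken from the probe sets that the array annotation ties to exactly 1 gene symbol, using the brightest on average where a gene had several. Of the 31, 29 were measured, out of 19938 genes in all. Klkb1 shares its probe set with another gene, and no probe set used here was tied to Cpb2. Fga alone had a second probe set.

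Expression was measured in liver RNA of mice at 4 weeks of age, 4 with a transgene for constitutively active IKK2 under the LAP promoter and 4 wild type controls, with 1 array per biological replicate. Both groups had a mixed C57BL/6 and NMRI background backcrossed to C57BL/6 at least 4 times. IKK2 is the kinase that releases NF-kB from its inhibitors, and the LAP promoter is active in hepatocytes, so the comparison concerns an organ in which the transgene is driven in 1 cell type while RNA of all its cells was read. Values are log2 expression, and differences are given as log2 fold change, transgenic minus control, from limma, with an adjusted p (Benjamini-Hochberg over all probe sets with 1 symbol) under 0.05 as the threshold for a call.

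Hepatocytes secrete most of the proteins of the clotting cascade, in which each protease cuts and activates the next until thrombin turns fibrinogen into fibrin. Tissue factor on cell surfaces starts the cascade, plasma inhibitors and the protein C system restrain it, and plasmin dissolves the clot. Fibrinogen is also known as a plasma protein of the acute phase, induced in hepatocytes by interleukin-6. Endothelial cells, macrophages and platelets supply further members, among them factor VIII, von Willebrand factor, thrombomodulin and the A chain of factor XIII.

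The upstream sequences of the 3 fibrinogen genes, of F9 and of F8 are shown first because they hold most matches to the motifs searched. Each is the 250 bases before the start site from RefSeq, build GRCm38.p6, written 5′ to 3′ along the gene, with motif matches in capitals. CTGGGAA is the core of the interleukin-6 response element of fibrinogen genes, TTCNNNGAA is a site for STAT factors, and the kappaB motif is that of NF-kB; both strands were searched, and CTGGGAA and TTCNNNGAA can overlap. Fgg lies at chr3:83007474-83007723, plus strand, and has CTGGGAA starting 13 bases before the start site:
Fgg: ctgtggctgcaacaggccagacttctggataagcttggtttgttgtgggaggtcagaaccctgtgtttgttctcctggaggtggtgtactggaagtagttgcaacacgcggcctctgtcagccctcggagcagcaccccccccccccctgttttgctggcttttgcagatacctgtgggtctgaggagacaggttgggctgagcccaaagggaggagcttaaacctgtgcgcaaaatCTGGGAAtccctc
Fgb lies at chr3:83049864-83050113, minus strand, with TTCNNNGAA 162 and CTGGGAA 91 bases before the start site:
Fgb: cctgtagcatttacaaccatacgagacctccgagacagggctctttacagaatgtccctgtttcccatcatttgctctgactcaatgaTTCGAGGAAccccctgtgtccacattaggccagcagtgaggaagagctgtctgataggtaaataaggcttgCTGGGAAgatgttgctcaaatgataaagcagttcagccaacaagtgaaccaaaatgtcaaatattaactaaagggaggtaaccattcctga
Fga lies at chr3:83025903-83026152, plus strand, with TTCNNNGAA 234 bases before the start site:
Fga: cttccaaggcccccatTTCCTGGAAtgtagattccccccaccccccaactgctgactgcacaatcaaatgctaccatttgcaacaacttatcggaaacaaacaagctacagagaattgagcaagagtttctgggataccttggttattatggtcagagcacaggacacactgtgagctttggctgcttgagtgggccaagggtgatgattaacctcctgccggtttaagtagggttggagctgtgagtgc
F9 lies at chrX:59999214-59999463, plus strand. TTCNNNGAA and, on the other strand, CTGGGAA overlap there, both beginning 82 bases before the start site:
F9: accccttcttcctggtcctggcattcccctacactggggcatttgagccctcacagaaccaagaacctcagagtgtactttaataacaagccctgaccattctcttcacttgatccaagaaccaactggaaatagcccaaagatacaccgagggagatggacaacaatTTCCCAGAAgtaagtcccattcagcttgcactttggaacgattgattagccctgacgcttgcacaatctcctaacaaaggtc
F8 lies at chrX:75380042-75380291, minus strand, and has a kappaB match 185 bases before the start site that reads as a match on either strand:
F8: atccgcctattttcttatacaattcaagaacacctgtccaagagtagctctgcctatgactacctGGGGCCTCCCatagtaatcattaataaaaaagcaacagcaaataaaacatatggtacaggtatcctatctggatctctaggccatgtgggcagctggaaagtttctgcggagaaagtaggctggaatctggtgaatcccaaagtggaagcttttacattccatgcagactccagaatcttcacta

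Upstream sequences of 21 of the 29 measured members were searched. Any promoter of a member on 1 of the chromosomes was left out of the search, but not out of the shares of all promoters. Among these 21 genes, 4 (19.0%) held CTGGGAA, namely F9, Fgb, Fgg and 1 of the 2 starts of Tfpi, against 9.10% of all 32851 promoters. Members were counted by gene, with a match at any start, and the background by promoter, so the shares are not in like units. TTCNNNGAA was in 4 (19.0%), namely F9, Fga, Fgb and Pros1, against 7.02% of all promoters. The kappaB motif was in F8 only (4.76%), against 7.25%. A match describes letters in this window and says nothing about binding.

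Ikbkb, the gene of IKK2, was 1.00 log2 units higher in transgenic liver (adjusted p = 0.0185, SE 0.18), and the groups did not overlap. Correlations between arrays over the probe sets lay between 0.952 and 0.994. No label used here gives the sex of the mice.

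The arrays of replicate 2 stood apart in both groups. Among the 19 hepatocyte-secreted members, replicate 2 was the lowest array for 13 in transgenic and for 17 in control liver. It was the highest for 0 in either group. Among the 10 members of other cells it was the highest array for 7 in transgenic and 5 in control liver. It was the lowest for 1 and 3 of them. In control liver the mean log2 level of these 10 in replicate 2, 5.54, lay inside the range of the group, 5.50 to 5.58. With both replicate 2 arrays left out, the median over all members was 0.02, and 1 member (F13a1) passed as higher and 0 as lower.

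None of the 29 members passed limma's test, against 6.34% of all 19938 genes, of which 932 (4.67%) were higher and 333 (1.67%) lower. The lowest adjusted p among the members was 0.0557. At an unadjusted p under 0.05 there were 9 members (31.0%), 7 with a higher and 2 with a lower mean in transgenic liver, beside 33.6% of all genes. The 4 transgenic and 4 control arrays did not overlap for 6 members (20.7%), beside 22.4% of all genes. Both shares lie near those of all genes. The median log2 fold change of the members was 0.01, with 15 positive and 14 negative, and that of all genes -0.07.

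**Figure D1:**
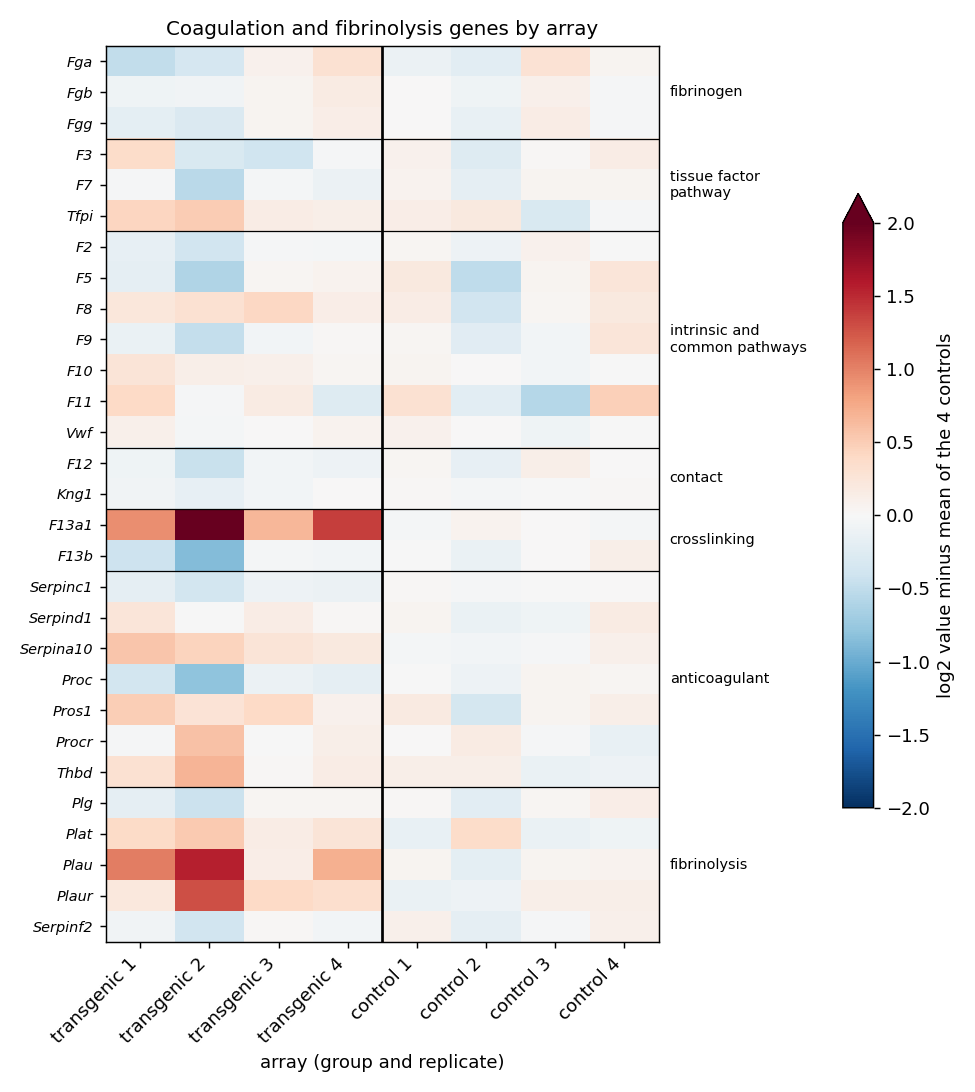
Each row is 1 of the 29 genes, grouped by role, and each column 1 array; colour is the log2 value minus the mean of the 4 controls, and the scale stops at 2. F13a1, Plau and Plaur are highest in transgenic replicate 2 of the 8 arrays, and no called difference is shown.

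A missed threshold does not show that values did not differ, so the intervals are given too. For 26 of the 29 members the 95% interval lay within a 2-fold change in either direction, and for 19 within a 1.5-fold change. Those reaching past 2-fold were F13a1, Plau and Plaur. Alternatives moved the count of called members: F13a1 passed when transgenic replicate 2 was left out (adjusted p = 0.00392), while F13a1, Plau and Serpina10 passed when transgenic replicate 3 was (0.0346, 0.0148 and 0.0496). Serpina10 passed when transgenic replicate 4 was left out (adjusted p = 0.0344). Under all limma alternatives tried, 0 members passed as lower, and eBayes with trend and robust options and treat called 0 in either direction.

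**Figure D2:**
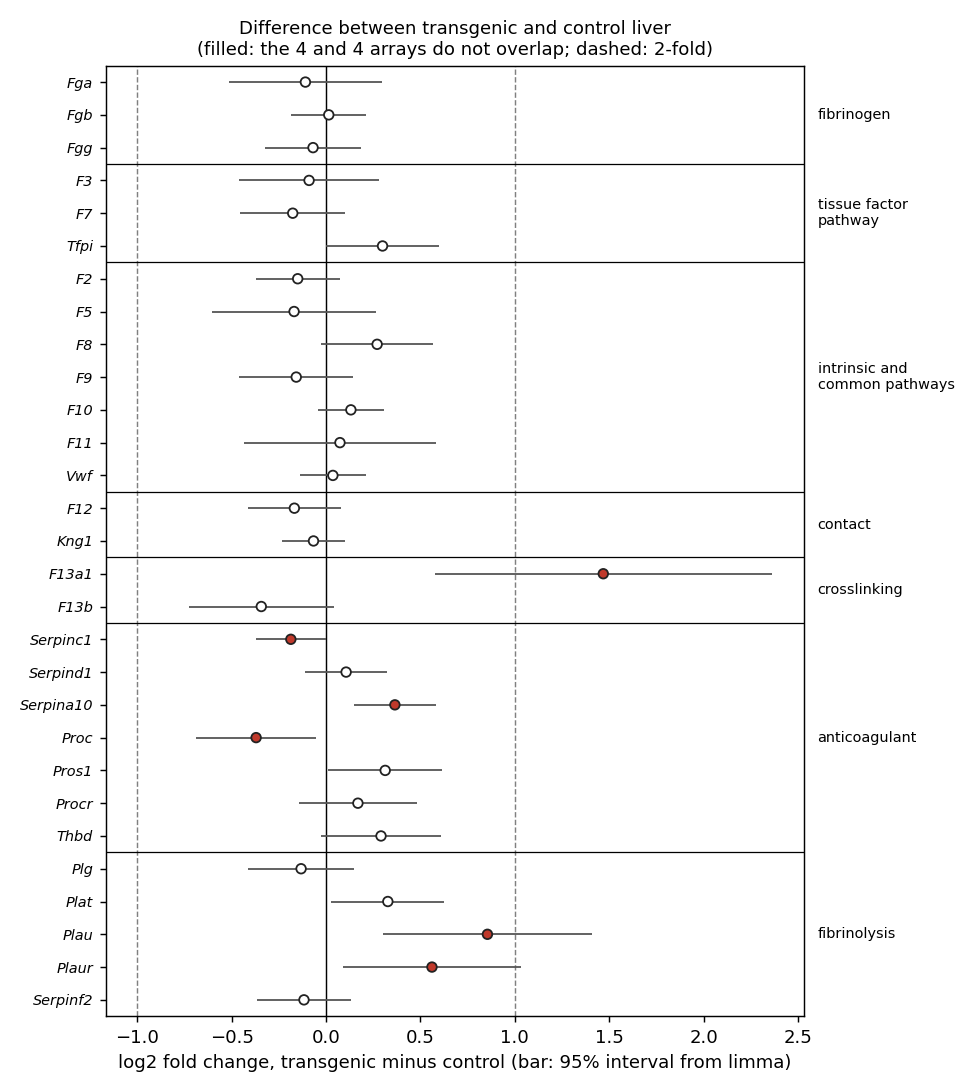
Log2 fold change (transgenic minus control) of each gene with its 95% interval from limma, grouped by role; filled points mark the 6 genes whose 4 and 4 arrays do not overlap, and dashed lines a 2-fold change. The intervals of F13a1, Plau and Plaur are the ones that cross a dashed line.

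Fibrinogen, the precursor of fibrin, is built of 3 chains whose genes lie side by side on chromosome 3. Of the 3, 0 passed limma's test and 0 had an unadjusted p under 0.05. Fgb, the beta chain (probe set 10498981), had values of 12.77, 12.78, 12.90 and 13.02 in the transgenic arrays, given here and below in the order of replicates 1 to 4, and of 12.86, 12.77, 12.96 and 12.82 in the controls. The groups overlapped fully, with a log2 difference of 0.01 (SE 0.09, 95% interval -0.18 to 0.21, adjusted p = 0.917). Fgg, the gamma chain, read 12.77, 12.67, 13.02 and 13.10 against 12.97, 12.82, 13.11 and 12.94, a log2 difference of -0.07 (interval -0.33 to 0.19, adjusted p = 0.674). Fga, the alpha chain, read 10.75, 10.90, 11.33 and 11.56 against 11.12, 11.04, 11.53 and 11.30, a log2 difference of -0.11 (interval -0.52 to 0.30, adjusted p = 0.675). Its second probe set gave -0.14 (SE 0.25). For each chain transgenic replicates 1 and 2 were the lower pair of that group and replicates 3 and 4 the higher pair. The 3 chains thus varied together between transgenic arrays, and each had controls inside the transgenic range. With 1 array per animal, variation between animals and between arrays cannot be told apart. The upper ends of the 3 intervals correspond to increases well under 2-fold. The signs of these small differences turned under other scalings: the chain with a positive value was Fgb as deposited, none after quantile normalization, and Fgb with Fgg after centring each array on its median.

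The tissue factor pathway starts clotting. Of its 3 genes 0 passed limma's test, and Tfpi had an unadjusted p under 0.05. F3, tissue factor itself, read 5.58, 4.90, 4.82 and 5.19 in transgenic liver and 5.30, 4.95, 5.23 and 5.36 in controls, so the groups overlapped (log2 fold change -0.09, adjusted p = 0.708). Those of F7, the protease that tissue factor binds, were 9.70, 9.19, 9.68 and 9.61 against 9.79, 9.54, 9.77 and 9.78. Replicate 2 was the lowest array of F7 in both groups (log2 fold change -0.18, adjusted p = 0.322). Tfpi, the inhibitor of this pathway, read 7.61, 7.68, 7.33 and 7.29 against 7.31, 7.37, 6.87 and 7.16, a log2 difference of 0.30 (SE 0.13, adjusted p = 0.151), which was 0.20 without control replicate 3.

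The intrinsic and common pathways carry the signal on to thrombin. Their 7 genes had 0 calls, also 0 at an unadjusted p under 0.05, and log2 fold changes between -0.17 and 0.27. F2, prothrombin, read 11.67, 11.45, 11.82 and 11.80 in transgenic livers and 11.87, 11.73, 11.92 and 11.82 in controls. Transgenic replicate 2 was lowest and the other arrays overlapped (log2 fold change -0.15, interval -0.37 to 0.07, adjusted p = 0.293). F5, the cofactor of factor Xa, read 10.04 to 10.71 against 10.13 to 10.89 (-0.17, adjusted p = 0.538). F9, the protease of the intrinsic tenase, read 9.85 to 10.35 against 10.10 to 10.57 (-0.16, adjusted p = 0.406). In both groups the lowest value of F5 and of F9 was that of replicate 2. F10, the protease that makes thrombin and a genomic neighbour of F7, read 11.44 to 11.66 against 11.35 to 11.45, a log2 difference of 0.13 (adjusted p = 0.251). F11, which activates factor IX, varied most of these among controls, from 8.85 to 9.89, with 9.17 to 9.83 in transgenic liver (0.07, interval -0.44 to 0.58). F8, the cofactor made by sinusoidal endothelium and the gene with the kappaB match shown above, read 8.16, 8.24, 8.35 and 8.07 against 8.08, 7.55, 7.98 and 8.13. Its mean log2 difference was 0.27 (SE 0.13, adjusted p = 0.180), with control replicate 2 lowest and the groups overlapping, and 0.14 without that array. Vwf, the carrier of factor VIII from endothelium, read 6.11 to 6.25 against 6.06 to 6.24 (0.04, interval -0.14 to 0.21, adjusted p = 0.752). The endothelial marker list had 1 of 11 genes called higher (Stab1), beside 4.67% of all genes. Its log2 summed level was 12.09 to 12.21 in transgenic and 11.94 to 12.10 in control liver. The part of that list in the values of F8 and Vwf was not tested.

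The contact system is a surface-started branch that also releases bradykinin. Both measured genes lay close to the controls, with 0 of 2 called. F12, its protease, read 10.71, 10.35, 10.74 and 10.69 in transgenic and 10.83, 10.63, 10.92 and 10.79 in control liver, replicate 2 being lowest in each group (log2 fold change -0.17, adjusted p = 0.291). Kng1, the kininogen from which bradykinin is cut, read 12.54 to 12.72 against 12.67 to 12.73. Its interval, -0.23 to 0.10, was the narrowest of all 29 genes (log2 fold change -0.07, adjusted p = 0.525).

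Factor XIII crosslinks fibrin and has an A chain from monocytes, macrophages and platelets and a B chain from hepatocytes. Neither gene passed limma's test, and the difference between them was not tested. F13a1, the A chain (probe set 10408693), had transgenic values of 4.81, 6.79, 4.55 and 5.27 and control values of 3.85, 3.96, 3.90 and 3.85. Every transgenic array was above every control, and transgenic replicate 2 stood far above the other 3. The mean log2 difference was 1.47 (2.77-fold, SE 0.40, interval 0.58 to 2.36, adjusted p = 0.0568), the largest of the members and just short of the threshold. Across alternatives its adjusted p ran from 0.00392 to 0.216. Without transgenic replicate 2 the log2 difference was 0.99, past the threshold, and without both replicate 2 arrays 1.01 (adjusted p = 0.0141). The control readings lie under the median of all probe sets on those arrays, 4.99 to 5.08, and no background was measured, so the size is uncertain. F13b, the B chain, read 10.23, 9.77, 10.60 and 10.58 against 10.63, 10.51, 10.65 and 10.76. Transgenic replicate 2 was again the extreme array, here the lowest, and the groups overlapped (log2 fold change -0.34, SE 0.17, adjusted p = 0.185). Without that array the difference of F13b was -0.17.

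**Figure D3:**
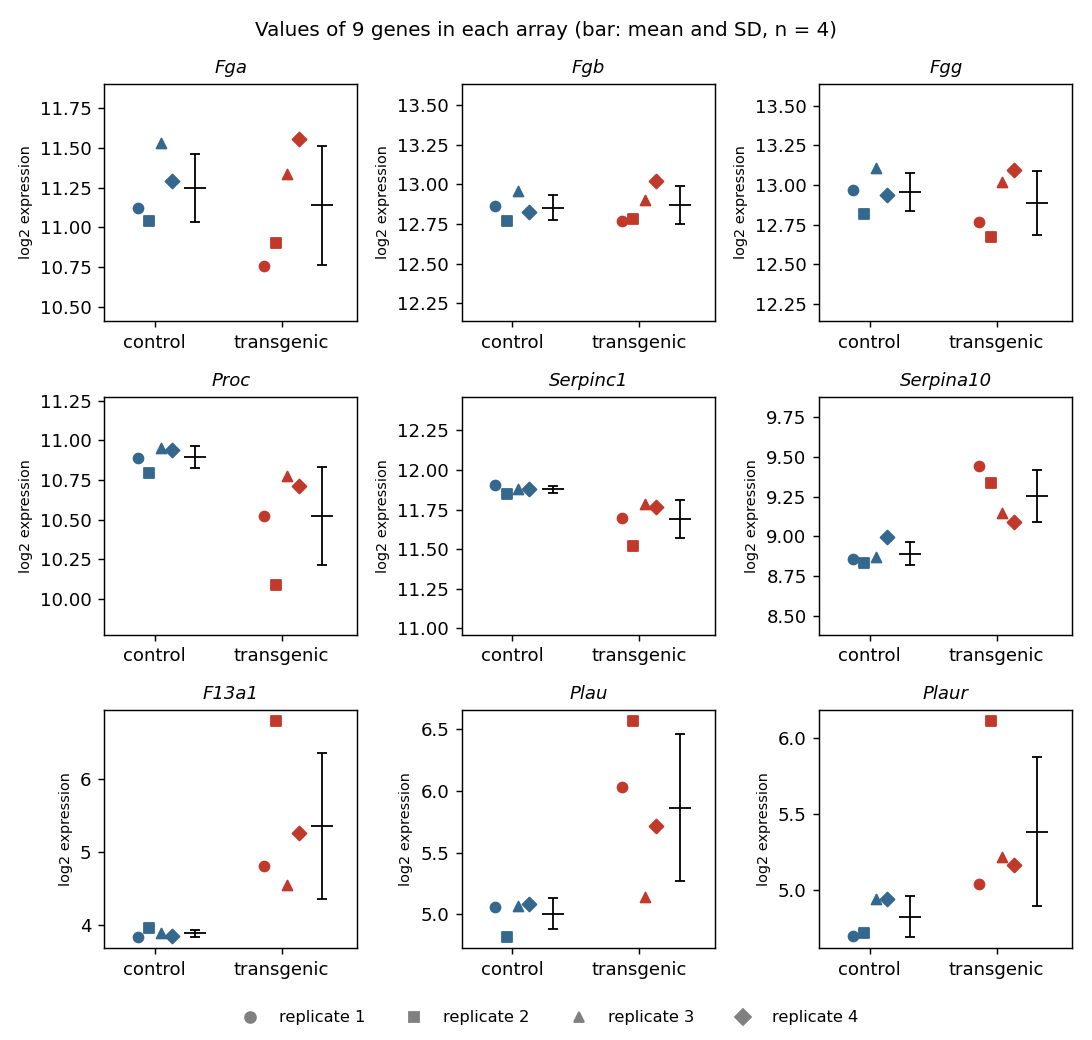
Log2 expression of 9 genes in each array, with the marker shape giving the replicate number and bars the mean and SD (n = 4); the y axes differ between panels and do not start at 0. The fibrinogen chains overlap between groups, F13a1 reads 3.85 to 3.96 in controls and 4.55 to 6.79 in transgenic liver, and transgenic replicate 2 is the highest array for F13a1, Plau and Plaur and the lowest for Proc and Serpinc1.

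Of 7 anticoagulant members 4 had an unadjusted p under 0.05, beside 33.6% of all genes, a difference that was not tested. None passed limma's test over all genes, and the 4 did not lie on 1 side. Serpina10, the inhibitor of factors Xa and XIa that acts with protein Z, read 9.44, 9.34, 9.15 and 9.09 in transgenic liver and 8.86, 8.83, 8.87 and 8.995 in controls, without overlap. Its mean log2 difference was 0.36 (1.29-fold, SE 0.10, adjusted p = 0.0557, range over the alternatives 0.0344 to 0.996). Pros1, the cofactor of activated protein C, read 9.34, 9.12, 9.25 and 8.93 against 9.03, 8.50, 8.90 and 8.96, a log2 difference of 0.31 (SE 0.13, adjusted p = 0.140). Transgenic replicate 4 of Pros1 lay among the controls, and without control replicate 2 the difference was 0.20. Proc, protein C, had the lowest log2 fold change of all members, -0.37 (SE 0.14, adjusted p = 0.111). It read 10.52, 10.09, 10.77 and 10.71 against 10.89, 10.80, 10.95 and 10.94, so every transgenic array was below every control and replicate 2 lowest. Without transgenic replicate 2 the difference of Proc was -0.23. Serpinc1, antithrombin, read 11.70, 11.52, 11.78 and 11.77 against 11.90, 11.85, 11.88 and 11.88, also without overlap. The difference was small, -0.19 (SE 0.08, adjusted p = 0.150). Serpind1, heparin cofactor II, read 11.56 to 11.80 against 11.42 to 11.72 (0.11, adjusted p = 0.442).

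On cell surfaces, Procr and Thbd serve the activation of protein C. Procr, its endothelial receptor, read 4.88, 5.49, 4.90 and 5.02 in transgenic liver and 4.91, 5.07, 4.89 and 4.76 in controls (log2 fold change 0.17, adjusted p = 0.397). Each control value of Procr lay under the median of all probe sets on its array, so the size of the difference is uncertain. Thbd, thrombomodulin, read 6.13, 6.50, 5.84 and 5.97 against 5.94, 5.94, 5.68 and 5.72 (0.29, SE 0.14, adjusted p = 0.178), and without transgenic replicate 2 its difference was 0.16. Transgenic replicate 2 was highest for both genes, and the other transgenic arrays lay near or among the controls.

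Fibrinolysis showed higher readings for the activators and the urokinase receptor, none of them called, and plasminogen and its inhibitor were not called either. Of 5 measured genes 3 had an unadjusted p under 0.05, beside 33.6% of all genes. Plau, urokinase (probe set 10413047), read 6.03, 6.56, 5.14 and 5.71 in transgenic and 5.06, 4.82, 5.07 and 5.08 in control liver. The groups did not overlap, though transgenic replicate 3 stood within 0.1 of the highest control. The mean log2 difference was 0.85 (1.81-fold, SE 0.25, adjusted p = 0.0635, range over the alternatives 0.0148 to 0.366), and 0.56 without both replicate 2 arrays. Plaur, the receptor that holds urokinase on leukocytes, read 5.04, 6.11, 5.21 and 5.16 against 4.69, 4.71, 4.94 and 4.94, without overlap (0.56, SE 0.21, adjusted p = 0.107). Without transgenic replicate 2 the difference of Plaur was 0.32, and without both replicate 2 arrays 0.28. Plat, the tissue-type activator, read 4.94, 5.08, 4.70 and 4.82 against 4.41, 4.93, 4.43 and 4.48. Control replicate 2 of Plat lay among the transgenic arrays (0.33, SE 0.13, adjusted p = 0.127). Control values of Plaur and Plat lay under the median of all probe sets on their arrays, 4.99 to 5.08, and those of Plau near it. As no background was measured, the sizes of the differences of Plau, Plaur and Plat are uncertain. Plg, plasminogen, read 12.22, 11.96, 12.44 and 12.43 against 12.42, 12.19, 12.43 and 12.54 (-0.13, interval -0.41 to 0.15, adjusted p = 0.453). Serpinf2, the main inhibitor of plasmin, read 11.79 to 12.19 against 11.98 to 12.27 (-0.12, adjusted p = 0.453). Both had their lowest array of each group in replicate 2.

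The members were also read by their textbook source. Of 19 chiefly secreted by hepatocytes, 6 log2 fold changes were positive and 13 negative, with a median of -0.12. Over all genes 38.4% were positive, beside 31.6% here, and the median was -0.07. Without the dimmest 50% of probe sets all 19 remained, at a median of -0.12, while that of all genes was 0.05. The distance from all genes thus depended on whether dim probe sets were counted. Without transgenic replicate 2 the median of these 19 was -0.03, with 7 positive, beside -0.06 over all genes. For all 19 the 95% interval stayed within a 2-fold change. Of the 10 chiefly made by other cells or held on cell surfaces, 9 (90.0%) were positive and F3 negative, with a median of 0.29, and 0.25 without transgenic replicate 2. Many of these 10 were dim: without the dimmest 50% of probe sets 4 remained, all positive, with a median of 0.28. In neither did a member pass limma's test, and 4 (21.1%) and 5 (50%) had an unadjusted p under 0.05, beside 33.6% of all genes. The split is a description, as its members were sorted with earlier results known. The medians were -0.13 and 0.23 after quantile normalization, where 5 and 8 were positive, and -0.04 and 0.37 after centring on array medians, where 8 and 9 were positive.

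Marker lists of liver cells were read in the same arrays. Over all genes 6.34% were called, 4.67% as higher, and 33.6% had an unadjusted p under 0.05. Hepatocyte markers had 0 of 9 called (1 at an unadjusted p under 0.05), a median log2 fold change of 0.01 and a log2 summed level of 15.81 to 15.99 in transgenic and 15.90 to 16.01 in control liver, with Alb at 13.57 and 13.56 on average. Kupffer cell and macrophage markers had 10 of 12 called higher, with a log2 summed level of 12.90 to 14.07 against 11.52 to 11.93. Recruited monocyte markers had 6 of 7 called higher, at 8.86 to 10.61 against 7.19 to 7.35. With both replicate 2 arrays left out, the 10 members of other cells had a median of 0.24 with 9 positive, and the 19 secreted ones -0.10 with 6 positive. In both myeloid lists transgenic replicate 2 was the highest array, as it was for F13a1, Plau, Plaur, Procr, Thbd, Plat and Tfpi. That array was also the highest in mean log2 level for platelet (5.89), neutrophil (4.69) and erythroid markers (7.11), lists described further below. It was not the highest for hepatocyte, endothelial or stellate cell markers. The mean of the monocyte list stood at 6.40, 7.19, 5.71 and 5.97 in the transgenic arrays, a ranking of replicates 2, 1, 4 and 3 from high to low. Plau, Plat and Thbd had the same ranking. F13a1 ranked 2, 4, 1 and 3, Plaur 2, 3, 4 and 1, Procr 2, 4, 3 and 1, and Tfpi 2, 1, 3 and 4. By mean log2 level other lists matched other members: Kupffer cell and macrophage markers ranked 2, 1, 3 and 4, like Tfpi. Neutrophil markers ranked 2, 3, 4 and 1, like Plaur, and platelet markers 2, 4, 3 and 1, like Procr. Erythroid markers ranked 2, 3, 1 and 4. For F3, F8 and Vwf transgenic replicate 2 was not the highest array. The part of these lists in the readings was not tested. In bulk liver RNA more cells of a type and more RNA per cell cannot be told apart.

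**Figure D4:**
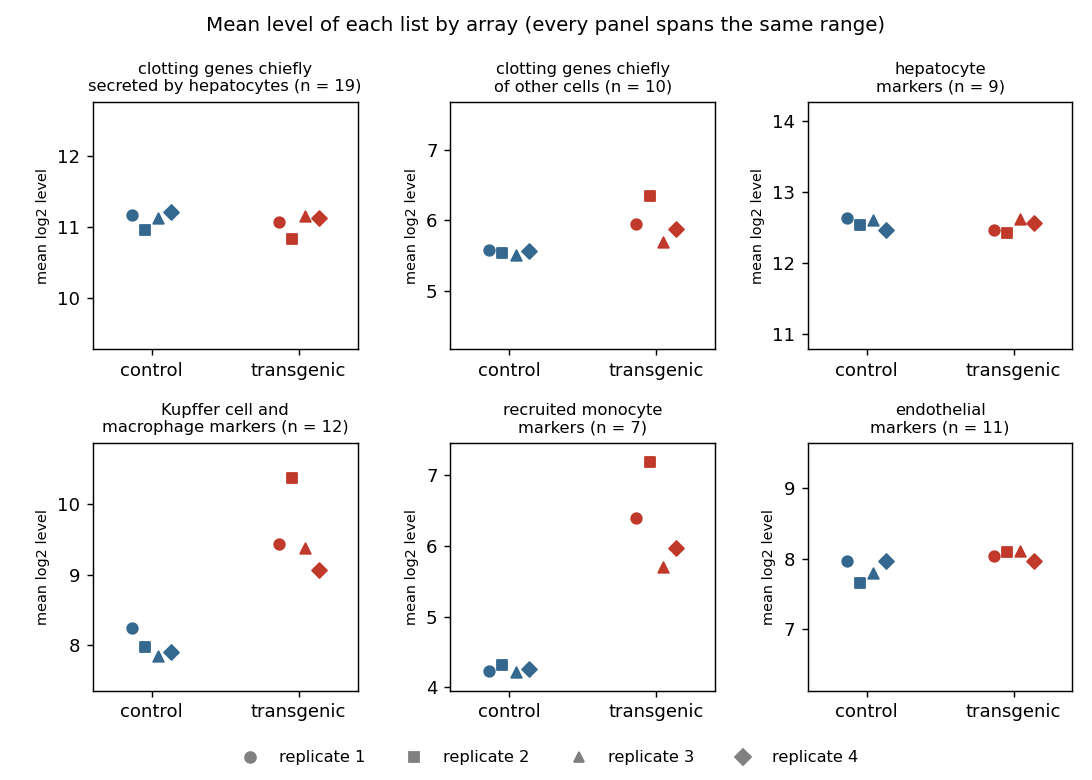
Mean log2 level of each list in each array, for control and transgenic liver, with the marker shape giving the replicate number; every panel spans 3.5 log2 units. The clotting genes secreted by hepatocytes stand at 10.83 to 11.16 in transgenic and 10.95 to 11.21 in control liver, whereas those of other cells stand at 5.70 to 6.35 and 5.50 to 5.58.

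Further genes around clotting were read through 7 lists. Of 38 listed, 34 were measured. Among them 1 passed as higher and 0 as lower, and 12 had an unadjusted p under 0.05. Over all genes 6.34% passed and 33.6% had an unadjusted p under 0.05. The median log2 fold change was -0.12, beside -0.07 over all genes. The called gene was Fgl2 (probe set 10519983), a fibrinogen-like protein of macrophages and endothelium that can cleave prothrombin. It read 6.94, 8.08, 6.64 and 6.35 in transgenic and 5.34, 5.33, 5.07 and 5.34 in control liver, without overlap and with transgenic replicate 2 highest. It rose by 1.74 (3.33-fold, SE 0.31, adjusted p = 0.0180, range over the alternatives 0.000398 to 0.0666). Dropping transgenic replicate 1 ended the call (adjusted p = 0.0644), as did dropping any 1 control (0.0546, 0.0666, 0.0643 and 0.0558 for controls 1 to 4).

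The vitamin K cycle serves the carboxylation that F2, F7, F9, F10, Proc and Pros1 need. In that list 0 of 3 passed and 2 had an unadjusted p under 0.05. These were Vkorc1 and Vkorc1l1, the epoxide reductases, chosen after their values were seen, each at a log2 difference of -0.36 without overlap (adjusted p = 0.0571 and 0.0555). Plasminogen receptors and clearance receptors had 0 of 8 called, with 3 higher and 2 lower at an unadjusted p under 0.05. Inhibitors of plasminogen activators and plasmin had 0 of 5 called, with 1 at an unadjusted p under 0.05. The 10 other plasma regulators held the Fgl2 call, with 2 more genes at an unadjusted p under 0.05, both with a lower mean in transgenic liver. Protease-activated receptors (3), genes of factor secretion (3) and bradykinin receptors (2) had 0 calls, with 0, 0 and 1 at an unadjusted p under 0.05. Over all genes the share at an unadjusted p under 0.05 was 33.6%, and whether these short lists differ from it was not tested.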

How the data were processed

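The deposited table holds log2 expression, 1 value for each probe set on each array. The submitters' processing notes name Affymetrix Expression Console; its version and normalization method are not given in any source used here. Base 2 was read from the range of the values, and no further normalization was applied. Array medians lay between 4.88 and 5.08. Precision is limited by the number of arrays, no depth applies, and no background signal was used.

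Of 35556 probe sets, 21789 have 1 gene symbol, 1621 several and 12146 none. Limma 3.58.1 in R 4.3.3 fitted the group to the 21789 across all 8 arrays, with eBayes and two-sided tests, and each gene was then counted once through its brightest probe set. SE and 95% intervals are limma's. The arrays are biological replicates per the labels. The numbers 1 to 4 recur in both groups, but same-numbered deviations correlated at 0.28, -0.03, 0.27 and -0.13, so they were not treated as pairs.

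The members and lists were chosen with earlier results of these data known. By rule, all measured members are named, and genes of the other clotting lists where they passed; exceptions are marked as chosen after their values were seen. Tested on simulated data with 19938 genes, the steps called 42 of 50 genes raised by 1 on the log2 scale and 48 of 50 lowered by as much, and 12 genes falsely. Alternatives were quantile normalization, median centring, removing probe sets among the dimmest 30% or 50%, all deposited probe sets, averaged probe sets, trend and robust moderation, array weights, a replicate block, treat at 1.2-fold, and leaving out each array. Leaving out both replicate 2 arrays was added after seeing the data.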

Additional observations from a re-analysis of the deposited data

Results flagged for a closer look

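In groups of 4 arrays, a single value far from the other 3 (by Dixon's ratio) was found for 5 of the 58 sets of values (29 genes in 2 groups), where chance flags about 1 in 20. All 5 came from a replicate 2 array. F7 stood at 9.54 in control replicate 2, below the 9.77 to 9.79 of its group. F12 stood at 10.35 in transgenic replicate 2, below the 10.69 to 10.74 of its group. Plat read 4.93 in control replicate 2 against 4.41 to 4.48, and Plau 4.82 there against 5.06 to 5.08. Plaur read 6.11 in transgenic replicate 2 against 5.04 to 5.21.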

How the results depend on the processing

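Over all genes, 932 higher and 333 lower calls became 1066 and 638 after quantile normalization, 618 and 97 after centring arrays on their medians, 425 and 54 with all deposited probe sets tested, and 271 and 8 with treat. With array weights 501 were lower. The replicate block left 670 higher and 174 lower and called 0 members, changing no member's call, and the lower count was 113 without both replicate 2 arrays. Leaving out 1 array gave 192 to 1636 higher and 3 to 944 lower genes, 0 to 3 members higher and 0 lower, and a member median of -0.0382 to 0.0293. The count of higher members was 1 after quantile normalization, without the dimmest 30% and with array weights (F13a1), 1 without the dimmest 50% (Serpina10; 23 members remained tested), and 1 without both replicate 2 arrays. The member median, 0.01, was 0.0933 after centring, -0.0253 after quantile normalization and -0.0696 without the dimmest 50%. The median of all genes moved too, from -0.07 to 0.00574, -0.0548 and 0.0486 in that order. Uncalled log2 differences changed sign for Kng1 (0.0125) and Fgg (0.00996) after centring, for Fgg (0.0160), Fga (0.0540) and F11 (-0.145) with array weights, and for Fgb (-0.00856) and Vwf (-0.0253) after quantile normalization. With 1 array left out, both signs occurred for Fgg (-0.139 to 0.003), Fga (-0.250 to 0.0177), F3 (-0.243 to 0.0107), Fgb (-0.0382 to 0.0489) and F11 (-0.116 to 0.230). The cause of these changes was not tested.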

Other observations

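Other marker lists read in these livers gave the following values. Over all genes 6.34% were called, 4.67% as higher, and 33.6% had an unadjusted p under 0.05. Whether these short lists differ from those shares was not tested. Stellate cell and fibroblast markers had 3 of 10 called higher (Dcn, Pdgfra and Col1a1), with a median log2 fold change of 0.41 and a log2 summed level of 12.18 to 12.33 in transgenic against 11.59 to 11.94 in control liver. Platelet and megakaryocyte markers, which bear on F13a1 and Vwf as platelets store both proteins, had 1 of 7 called, Pf4, higher by 0.98, and 4 at an unadjusted p under 0.05. That list's median was 0.04, and its log2 summed level 8.58 to 9.02 against 8.28 to 8.53. The uncalled members with an unadjusted p under 0.05 were Itgb3 (log2 fold change 0.51), Ppbp (0.61) and Gp5 (-0.33). Neutrophil markers had 0 of 8 called by limma, with 1 at an unadjusted p under 0.05. Erythroid markers had 1 of 5 called higher (Tfrc) and 1 lower (Gata1). Tfrc is also made outside the erythroid line.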
